A study of Rattus norvegicus with 60 samples.

Results

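The miR-23/27/24 family was measured in rat retina after ischemia-reperfusion (IR). Its 5 guide strands on the array (rno-miR-23a, rno-miR-23b, rno-miR-24, rno-miR-27a and rno-miR-27b, written without the prefix from here on) were taken by name out of the 350 rat miRs that the array lists, and names with a star were left out. Each of the 60 arrays held total RNA from the whole retina of 1 male Long Evan’s hooded rat of 250 to 300 g. In the IR groups the pressure in 1 eye was raised to 110 mmHg for 60 min by cannulation, and reperfusion then lasted 0, 2, 24 or 48 h, or 7d. Sham control rats went through the same anesthesia and cannulation without the raised pressure, with 6 rats in each of the 10 groups and no genetic alteration in any of them. No age is given for the rats. Whole retina mixes neurons, glia, vessels and blood cells, so that a change in how many cells of a type were present and a change of the miR per cell cannot be told apart.

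MiRs are short RNAs cut from a hairpin in a longer primary transcript. 1 strand of the cut duplex, the guide, is loaded into an Argonaute protein and pairs through its seed, bases 2 to 8, with sites in target mRNAs. The other strand, the passenger, is mostly degraded. MiR-23, miR-27 and miR-24 lie in that order in a pair of clusters, and each cluster is transcribed as 1 primary RNA, so its members share a promoter and can still differ in processing and decay. The family is best known from blood vessels, where its members act on angiogenesis and vessel integrity, and from lipid metabolism (miR-27) and cell cycle exit (miR-24).

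In the RefSeq annotation of the GRCr8 build, the miR-23a cluster holds Mir23a, Mir27a and Mir24-2 within 389 bases of the minus strand (chr19:40859455-40859843), and no protein-coding gene spans it. The miR-23b cluster holds Mir23b, Mir27b and Mir24-1 within 814 bases of the minus strand (chr17:1818669-1819482), inside the interval of the protein-coding gene Aopep. All 5 members matched the RefSeq table under the same name with the arm 3p. Their mature sequences are given because the comparisons within the family turn on how few bases separate them, with the seed in capitals.
miR-23a: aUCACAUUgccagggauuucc
miR-23b: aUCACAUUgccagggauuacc
miR-27a: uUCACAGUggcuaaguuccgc
miR-27b: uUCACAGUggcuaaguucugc
miR-24: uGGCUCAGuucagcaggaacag
The family holds 3 seeds. MiR-23a and miR-23b share 1, miR-27a and miR-27b share another, and miR-24 has its own. Counted from the 5′ end, miR-23a differs from miR-23b by 1 of 21 bases, U19A. MiR-27a differs from miR-27b by 1 of 21 bases as well, C19U. Each pair is thus the same in the seed and differs at the third base from the 3′ end. MiR-24 is made from both clusters, and the hairpins are shown with the mature strand in capitals because that strand is the same in each, so its signal on the array cannot be assigned to 1 locus.
Mir24-1: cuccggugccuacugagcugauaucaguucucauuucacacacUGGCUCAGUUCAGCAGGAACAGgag
Mir24-2: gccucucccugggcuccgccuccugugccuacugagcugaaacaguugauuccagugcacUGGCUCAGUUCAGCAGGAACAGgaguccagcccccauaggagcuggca
The array reads each member with 2 probes of 10 spots each, which cover 16 to 18 bases. The distance between the probe positions of neighbouring members in the array annotation equaled that between their RefSeq 3′ ends, with 164 bases for miR-23a and miR-27a, 242 for miR-23b and miR-27b and 491 for miR-27b and miR-24. Whether each probe reaches the differing base, and how far it also binds the paralog, was not tested.

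The values are total signals of each miR from the scanner files, on the log2 scale, after each array was scaled by its 75th percentile among the 57 miRs that all 60 arrays detected. MiR-23b and miR-24 were detected on 60 of 60 arrays, miR-27a and miR-27b on 59 and miR-23a on 58, and no spot of a member was saturated. The misses came from replicate 4 at 7d after IR (miR-23a, miR-27a and miR-27b) and from replicate 3 at 24 h after IR (miR-23a). These were dim arrays. Before scaling, the log2 75th percentile averaged 8.27 ± 0.57 after IR and 10.42 ± 0.35 in sham control at 24 h, 9.26 ± 0.85 and 10.45 ± 0.30 at 48 h, and 8.16 ± 0.47 and 10.74 ± 0.24 at 7d (SD, n = 6). At 0 h the averages were 9.34 ± 0.89 and 10.40 ± 0.49, and at 2 h they were 9.84 ± 0.58 and 9.80 ± 0.41. Between 59 and 232 miRs were detected on an array. The difference in brightness runs with IR at every time point except 2 h, so the members were also compared as ratios on the same array, which no scaling of the array can change. Whether brightness had a part in the differences was not tested beyond its use as a covariate.

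The clearest change was in miR-27a, which was 1.82-fold the sham control level at 48 h after IR. It was also higher at 24 h and 7d, where the call depended on the processing. MiR-23b fell at 24 h and 48 h, miR-27b fell at 24 h and 7d, and miR-24 rose at 7d, by 1.11- to 1.19-fold. No member passed the study's thresholds at any time point (a fold change of at least 2 with an adjusted p of at most 0.05), which 18.2% of the 159 tested miRs passed at 24 h, 13.8% at 48 h and 18.2% at 7d (limma, Benjamini-Hochberg adjustment). At 0 h they were passed by 6.92% and at 2 h by 5.03%. With the adjusted p alone, 3 of the 5 members passed at 24 h (1 higher, 2 lower), 2 at 48 h (1 higher, 1 lower) and 3 at 7d (2 higher, 1 lower). Of all tested miRs 60.4% passed this way at 24 h (24.5% higher, 35.8% lower), 54.7% at 48 h (19.5% higher, 35.2% lower) and 59.7% at 7d (20.1% higher, 39.6% lower), so the counts of members lie near the background. At 0 h and 2 h none of the 5 members passed in limma, with 0 also at an unadjusted p under 0.05, against 12.6% and 7.55% of all tested miRs. With the 75th percentile over all miRs or in the authors' deposited values, however, all 5 passed as lower at 0 h, on scales where the median of all tested miRs moved by -0.31. Of all tested miRs 44.7% and 42.4% passed as lower there. The median log2 difference of the members was -0.16 at 24 h, 0.12 at 48 h and 0.04 at 7d, beside -0.13, -0.15 and -0.15 over the 159 miRs. A member that passes with this adjusted p alone is open to small errors of the scaling, and the sections below say for each where another scaling ends or turns the call.

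**Figure D1:**
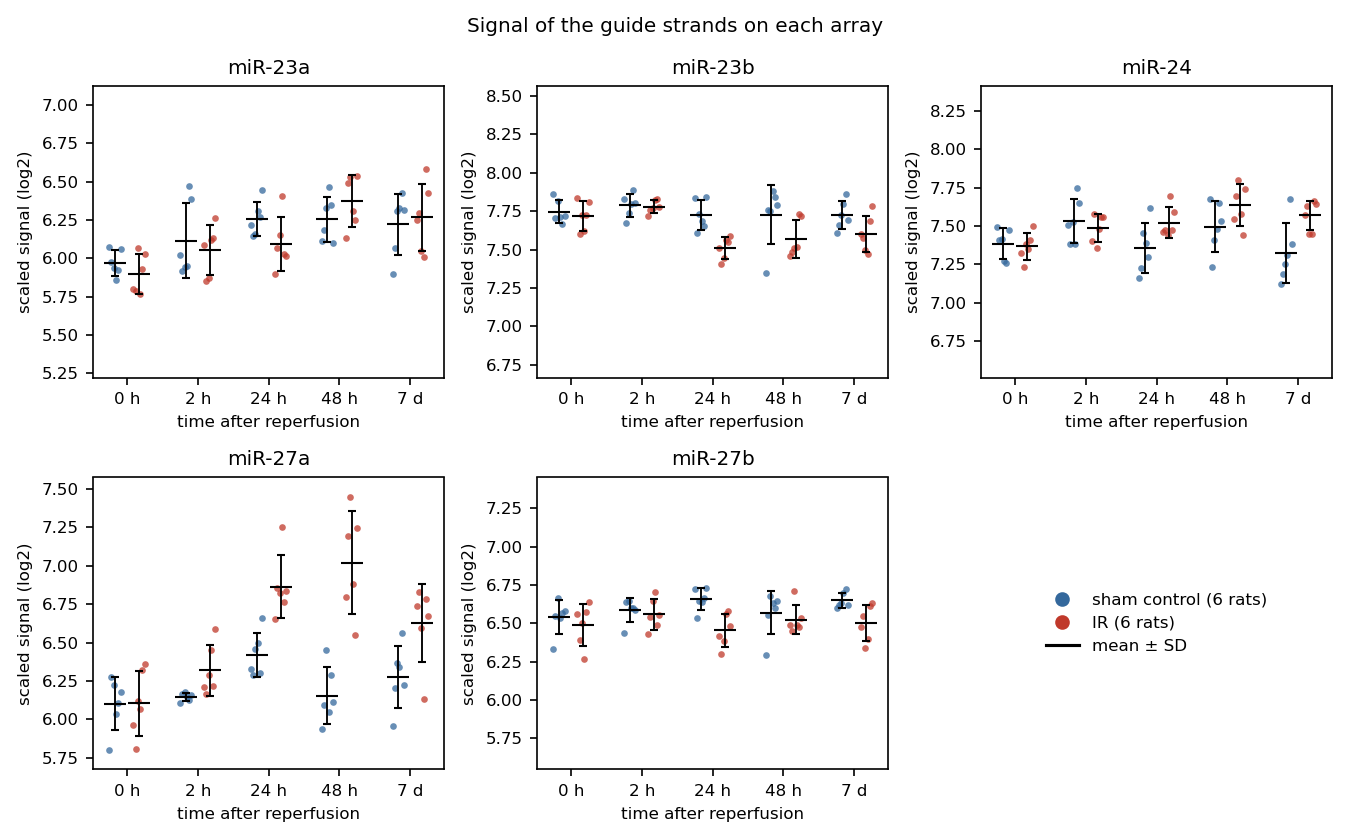
Scaled signal (log2) of the 5 guide strands on each array by time after reperfusion, with 1 point per rat, blue for sham control and red for IR, and black bars for the mean and SD of 6 rats. All panels span the same range of log2 units, and levels are not comparable between panels. At 48 h every IR array of miR-27a lies above every sham control array, while the groups of miR-27b overlap.

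MiR-27a is known for its action on lipid metabolism and on angiogenesis. Its signal at 48 h after IR was 6.55 on the lowest array, 7.04 at the median and 7.45 on the highest, against 5.94, 6.10 and 6.45 on the sham control arrays (log2 scaled signal). All 6 IR arrays lay above all 6 sham control arrays, as they did for 6.29% of the tested miRs. The difference was 0.87 on the log2 scale (SE 0.12, 95% interval 0.63 to 1.10, adjusted p = 7.7e-08 by limma).

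At 24 h the signal of miR-27a was 6.66, 6.83 and 7.25 on the lowest, median and highest IR array and 6.29, 6.39 and 6.66 on the sham control arrays. In 5 of 6 IR arrays it lay above the highest sham control array, and the sixth fell just short. The difference was 0.44 (95% interval 0.21 to 0.68, adjusted p = 0.0014 by limma). At 7d the IR arrays spanned 6.13 to 6.83 around a median of 6.71 and the sham control arrays 5.96 to 6.56 around 6.28. Here too 5 IR arrays lay above the sham control arrays, while the sixth, on which miR-27a was not detected, lay among them. The difference was 0.35 (95% interval 0.11 to 0.59, adjusted p = 0.0094 by limma).

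At 2 h the IR arrays of miR-27a spanned 6.17 to 6.59 around a median of 6.25, and the sham control arrays lay closely between 6.11 and 6.18 around 6.15. The difference of 0.17 did not pass (95% interval -0.06 to 0.41, adjusted p = 0.61 by limma), although 5 of 6 IR arrays were above the highest sham control array. At 0 h the medians were 6.09 after IR and 6.14 in sham control, with groups that spanned nearly the same range, and the means differed by less than 0.01 (95% interval -0.23 to 0.24).

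The rise of miR-27a at 48 h held when array brightness was a covariate (0.82, adjusted p = 4.8e-06 by limma), in the authors' deposited values (0.73, adjusted p = 1.2e-06) and within each of the 3 scans (0.98, 0.92 and 0.70, with 2 IR and 2 sham control arrays in each). In each scan these IR and sham control arrays lay on different slides, so the scans do not set IR apart from slide. Without any normalization between the arrays the sign of miR-27a turned, to -0.33 (adjusted p = 0.35 by limma), on IR arrays that were dimmer as a whole. The calls at 24 h and 7d were less firm. When slide was a block, no member passed as higher at either time, so neither did miR-27a. With the 75th percentile over all miRs the differences were 0.13 and 0.15 (adjusted p = 0.30 and 0.26), with brightness as a covariate 0.37 and 0.26 (adjusted p = 0.10 and 0.35), and in the authors' deposited values 0.09 and 0.10 (adjusted p = 0.49 and 0.45), each by limma. Within scans the difference was 0.45, 0.53 and 0.18 at 24 h and 0.71, 0.01 and 0.34 at 7d. With normexp background correction it was 0.82 at 24 h and 1.12 at 7d, beside medians of 0.87 and 1.13 over all tested miRs.

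The pair of probes for miR-27a told the same at 48 h, with 0.69 for the shorter probe and 0.90 for the longer one (adjusted p = 2.2e-04 and 2.1e-08 by limma). They parted at the other times. The longer probe gave 0.52 at 24 h and 0.43 at 7d (adjusted p = 2.3e-04 and 0.0016), whereas the shorter one gave 0.03 and -0.10 (adjusted p = 0.88 and 0.58). The longer probe carried a median of 83.1% of the total signal of miR-27a over the 60 arrays (79.0% to 89.0%), so the total follows it.

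**Figure D2:**
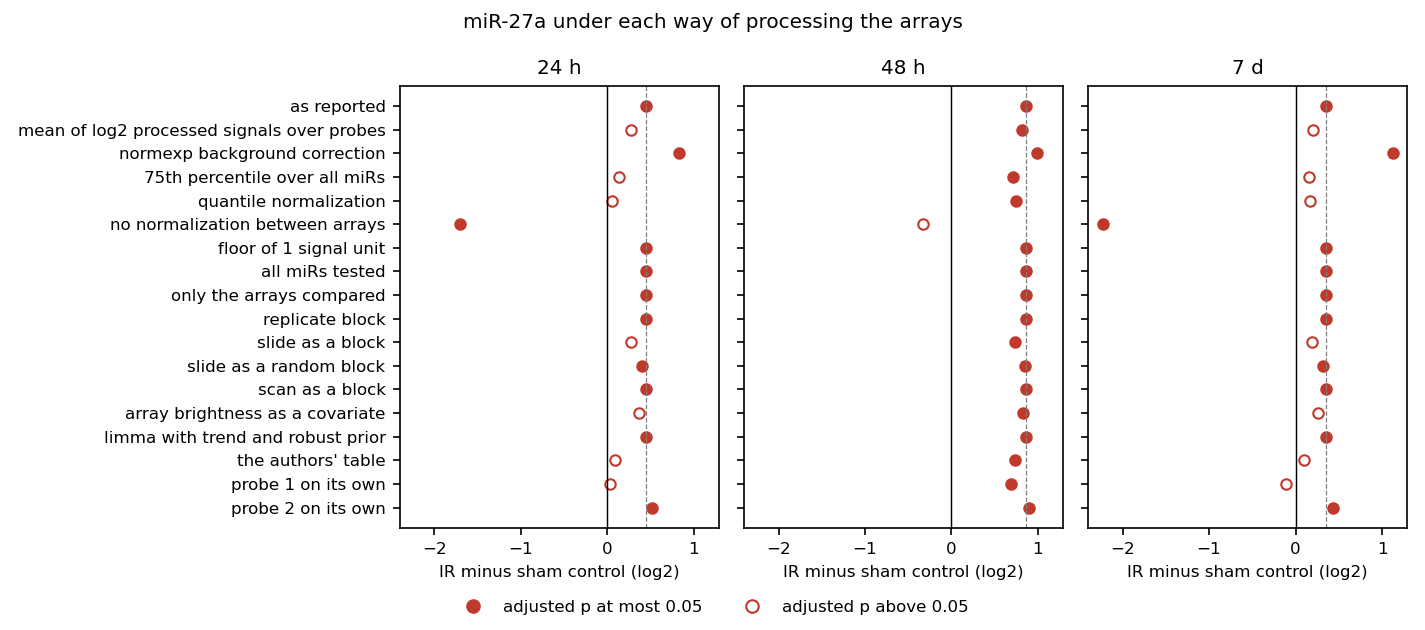
Difference of miR-27a between IR and sham control (x axis, log2) at 24 h, 48 h and 7d under each way of processing the arrays (rows), with a filled point where the adjusted p was at most 0.05 and an open one where it was not. The dashed line marks the value as reported. At 48 h 1 open point is seen, at -0.33 without normalization, while at 24 h and 7d several settings give open points nearer to 0.

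MiR-27b, which has the same seed, did not follow. At 48 h its lowest, median and highest IR arrays were at 6.45, 6.49 and 6.71, and the sham control arrays at 6.30, 6.62 and 6.68. The groups overlapped, and the difference of -0.04 did not pass (95% interval -0.17 to 0.09, adjusted p = 0.56 by limma). At 24 h the IR arrays spanned 6.30 to 6.58 around a median of 6.45 and the sham control arrays 6.54 to 6.73 around 6.65. In 4 of 6 IR arrays miR-27b was below the lowest sham control array, and it fell by 0.20 (95% interval -0.33 to -0.07, adjusted p = 0.0070 by limma). At 7d it fell by 0.15 (95% interval -0.28 to -0.02, adjusted p = 0.046), from a sham control range of 6.60 to 6.72 to an IR range of 6.34 to 6.64. This last call was lost when any of the 12 arrays but IR replicates 2, 5 and 6 and sham control replicate 1 was left out (adjusted p up to 0.14), and both were lost with brightness as a covariate (-0.16 and -0.09, adjusted p = 0.23 and 0.57 by limma). Its probes parted at 7d, with -0.47 for the shorter one (adjusted p = 7.5e-04) and -0.07 for the longer one (adjusted p = 0.36), which carried a median of 76.8% of the signal. At 24 h each passed, at -0.40 and -0.15. With normexp background correction miR-27b was higher after IR, by 0.59 at 24 h and 0.82 at 7d (adjusted p = 0.022 and 0.0016), on a scale where the median of all tested miRs moved up by 1.00 and 1.28.

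MiR-23b, the neighbour of miR-27b in its cluster, fell at 24 h. Its IR arrays lay at 7.40, 7.53 and 7.59 (lowest, median and highest) and its sham control arrays at 7.61, 7.71 and 7.84. All 6 IR arrays were below all 6 sham control arrays, as for 17% of the tested miRs, and the difference was -0.22 (95% interval -0.35 to -0.08, adjusted p = 0.0047 by limma). At 48 h the IR arrays spanned 7.46 to 7.73 around a median of 7.51 and the sham control arrays 7.34 to 7.88 around 7.77, so the groups overlapped. MiR-23b fell by 0.16 there (95% interval -0.29 to -0.03, adjusted p = 0.039), and the call was lost when any of the 12 arrays but IR replicates 5 and 6 and sham control replicate 1 was left out (adjusted p up to 0.12). At 7d the difference of -0.12 did not pass (95% interval -0.25 to 0.01, adjusted p = 0.10). The sign at 24 h, 48 h and 7d turned to 0.24, 0.20 and 0.42 with normexp (adjusted p = 0.14, 0.21 and 0.0084 by limma), on the shifted scale named above, and the calls at 24 h and 48 h did not pass with brightness as a covariate (-0.17 and -0.14, adjusted p = 0.18 and 0.15). Each of its probes passed at 24 h, at -0.30 and -0.19. At 48 h the shorter probe gave -0.23 (adjusted p = 0.014) and the longer one -0.13 (adjusted p = 0.0996), and at 7d they gave -0.30 (adjusted p = 0.0014) and -0.07 (adjusted p = 0.41).

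MiR-23a, the neighbour of miR-27a in the other cluster, passed at no time point on this scaling. At 48 h its IR arrays were at 6.13, 6.40 and 6.53 (lowest, median and highest) and its sham control arrays at 6.10, 6.26 and 6.47, and the groups overlapped. The differences were -0.16 at 24 h (95% interval -0.36 to 0.04, adjusted p = 0.15 by limma), 0.12 at 48 h (-0.08 to 0.32, adjusted p = 0.34) and 0.04 at 7d (-0.16 to 0.24, adjusted p = 0.71). The interval at 48 h lies wholly below that of miR-27a. At 24 h miR-23a passed in 6 of 15 alternative fits, which ranged from -2.31 without normalization to 0.70 with normexp, and its probes parted, with -0.42 for the shorter one (adjusted p = 0.0077) and -0.09 for the longer one (adjusted p = 0.41 by limma).

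MiR-24, which has been studied in cell cycle exit and apoptosis, rose at 7d. Its lowest, median and highest IR arrays were at 7.45, 7.60 and 7.66, and the sham control arrays at 7.12, 7.28 and 7.68. Every IR array was above the sham control mean, but 1 sham control array lay above all of them. The difference was 0.25 (95% interval 0.09 to 0.41, adjusted p = 0.0072 by limma), which was 0.05 with the 75th percentile over all miRs and 0.00 (just below 0) in the authors' deposited values (adjusted p = 0.57 and 0.95). The longer probe, with a median of 66.9% of the signal, gave 0.32 (adjusted p = 4.0e-04) and the shorter one 0.10 (adjusted p = 0.40). The differences at 24 h and 48 h were 0.17 and 0.14 (adjusted p = 0.068 and 0.15), while the longer probe alone gave 0.21 and 0.19 (adjusted p = 0.020 and 0.034). At 24 h the sign turned in the authors' deposited values, to -0.19 (adjusted p = 0.012).

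**Figure D3:**
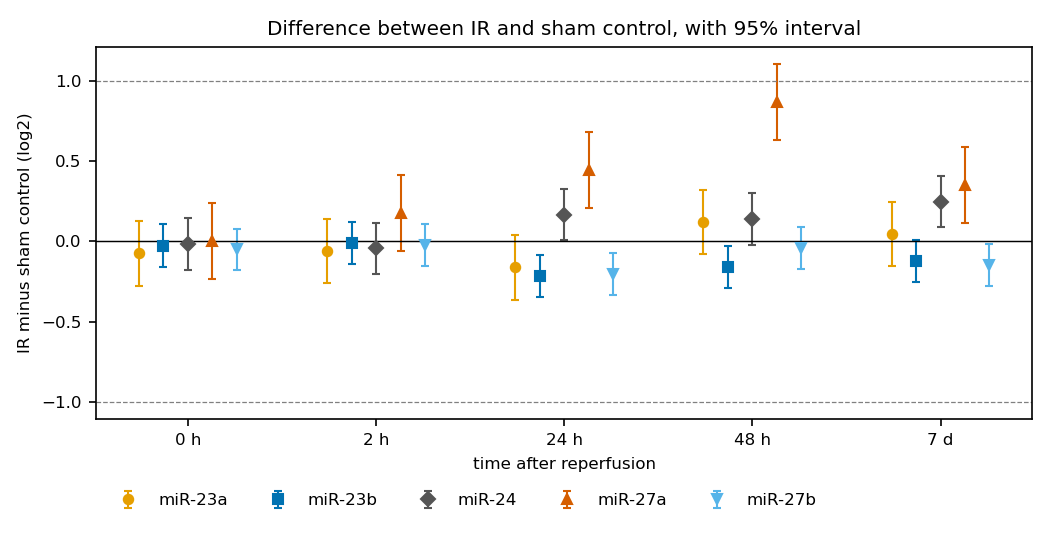
Difference between IR and sham control (y axis, log2) of the 5 members at each time after reperfusion, with 95% intervals from limma and dashed lines at a fold change of 2. The interval of miR-27a at 48 h (0.63 to 1.10) lies above those of the other 4 members at that time.

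Ratios within an array do not depend on its scaling, and they show unequal change without telling which member moved. The probes differ in brightness, so only the difference of a ratio between groups is read. For 4 ratios at 5 time points, 20 permutation tests were run (exact and two-sided), in which the smallest p that 6 against 6 arrays allow is 0.00216.

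The ratio of miR-27a to miR-27b was higher after IR from 2 h on in the total signals. At 48 h its log2 was 0.50 ± 0.28 after IR and -0.41 ± 0.14 in sham control (SD, n = 6), from 0.08 to 0.75 against -0.59 to -0.23. All 6 IR arrays lay above all sham control arrays, and the ratio was 1.88-fold higher (exact permutation test, p = 0.00216, adjusted p = 0.011). At 24 h the log2 was 0.41 ± 0.20 and -0.24 ± 0.13, again without overlap, a 1.57-fold difference (exact permutation test, p = 0.00216, adjusted p = 0.011). At 7d 5 of 6 IR arrays were above the sham control range, and the difference was 1.41-fold (0.12 ± 0.21 against -0.37 ± 0.16, exact permutation test, adjusted p = 0.014). At 2 h the smaller difference of 1.15-fold passed too (-0.24 ± 0.15 against -0.44 ± 0.06, 4 of 6 IR arrays above the sham control range, exact permutation test, adjusted p = 0.014). At 0 h the groups overlapped (-0.38 ± 0.17 against -0.44 ± 0.09, exact permutation test, adjusted p = 0.67).

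The authors' deposited values are the same total signals centred per array, so they give the same ratios and are no separate check of them. Within the 3 scans the log2 difference was 0.94, 0.97 and 0.82 at 48 h, 0.72, 0.67 and 0.43 at 24 h, and 0.80, 0.31 and 0.38 at 7d. With brightness as a covariate it was 0.84 at 48 h (SE 0.11), 0.52 at 24 h (SE 0.13), 0.35 at 7d (SE 0.15) and 0.20 at 2 h (SE 0.10). Normexp gave smaller differences of 0.23 at 24 h, 0.38 at 48 h and 0.30 at 7d, with all 6 IR arrays above all sham control arrays at all these times (exact permutation test, adjusted p = 0.0048), and 0.05 at 2 h (adjusted p = 0.35). The call at 2 h was also lost with log2 signals averaged over the probes (0.16, adjusted p = 0.16). Normexp also gave 0.14 at 0 h with no overlap (adjusted p = 0.0048 by the exact permutation test), where the total signals gave 0.05.

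The ratio of miR-23a to miR-23b passed at no time point in the total signals. Its log2 was -1.19 ± 0.19 after IR and -1.47 ± 0.16 in sham control at 48 h, with 4 of 6 IR arrays above the sham control range (SD, n = 6, adjusted p = 0.056 and p = 0.028 by the exact permutation test). At 7d it was -1.34 ± 0.13 and -1.50 ± 0.12 (exact permutation test, p = 0.0498, adjusted p = 0.091). At 24 h the difference was 0.05 (exact permutation test, adjusted p = 0.70). With normexp the ratio was higher after IR by 0.45 at 0 h, 0.47 at 24 h, 0.55 at 48 h and 0.61 at 7d (exact permutation test, adjusted p = 0.0048, 0.0048, 0.0079 and 0.0048), with 6, 6, 5 and 6 of 6 IR arrays above the sham control range. The normexp differences of the miR-27 ratio at these times were smaller, and the 2 ratios were not tested against each other.

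Set against the pair of miR-27 members, the pair of miR-23 members was lower after IR. The log2 ratio fell from 0.45 ± 0.04 in sham control to 0.14 ± 0.04 after IR at 24 h, with all 6 IR arrays below (exact permutation test, p = 0.00216, adjusted p = 0.011). At 48 h it was 0.20 ± 0.17 after IR and 0.63 ± 0.12 in sham control (5 of 6 IR arrays below, exact permutation test, adjusted p = 0.014), and at 7d 0.37 ± 0.09 and 0.51 ± 0.05 (5 of 6 below, exact permutation test, adjusted p = 0.014). The call at 7d was lost without replicate 4 or replicate 6 of the sham control at 7d (-0.14 and -0.13, adjusted p = 0.053 and 0.056 by the exact permutation test). It was also lost when log2 signals were averaged over the probes (-0.06, 3 of 6 IR arrays below, adjusted p = 0.49), and with brightness as a covariate the difference at 7d was -0.10 (SE 0.10).

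MiR-24 against the mean of the other 4 members was higher after IR at 24 h (0.79 ± 0.05 against 0.59 ± 0.12, all 6 IR arrays above, exact permutation test, p = 0.00216, adjusted p = 0.011) and at 7d (0.82 ± 0.07 against 0.60 ± 0.11, 4 of 6 above, exact permutation test, adjusted p = 0.014). With normexp these differences turned to -0.14 and -0.21 (adjusted p = 0.065 and 0.025). With brightness as a covariate they were 0.11 at 24 h (SE 0.09) and 0.11 at 7d (SE 0.10), and within the 3 scans 0.35, 0.11 and 0.16 at 24 h and 0.23, 0.38 and 0.03 at 7d. At 48 h, when miR-27a was highest, the difference was -0.06 (exact permutation test, adjusted p = 0.74).

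**Figure D4:**
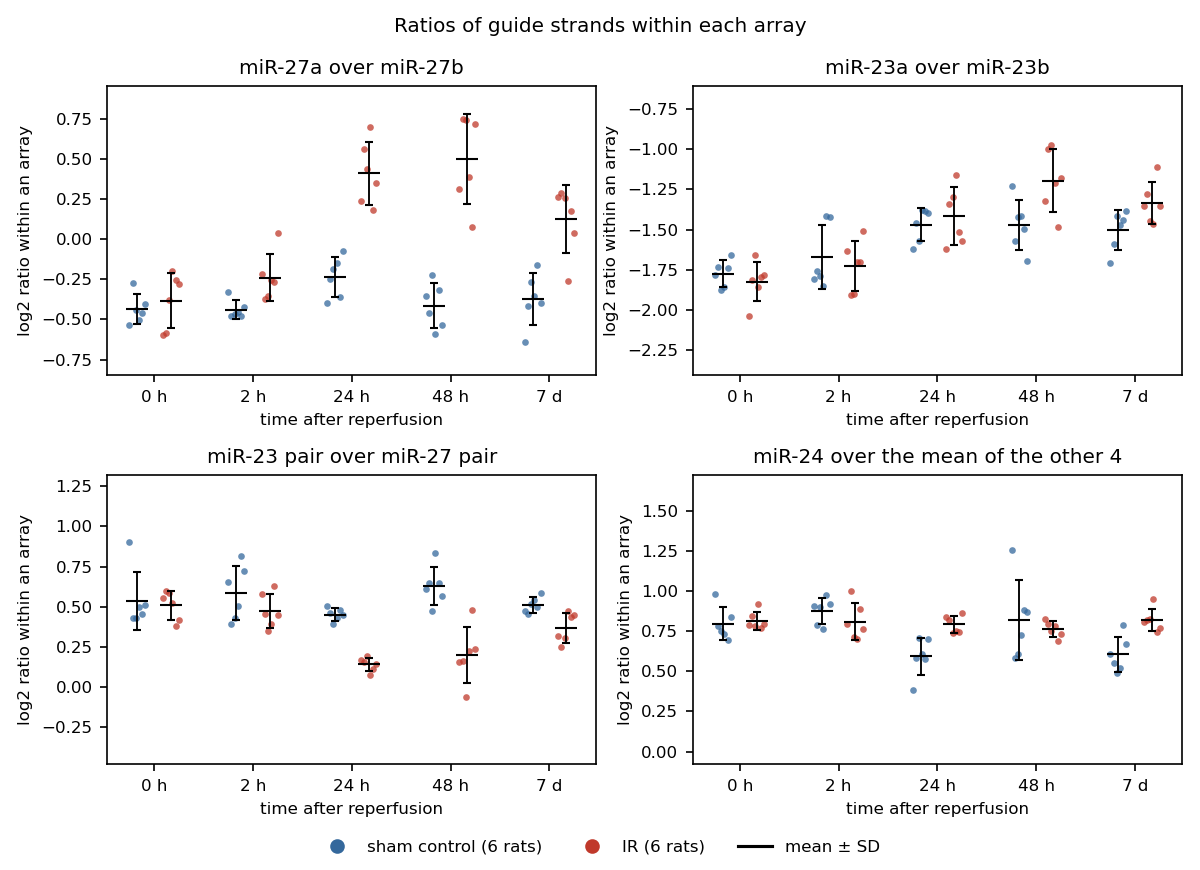
Log2 ratios of members on the same array by time after reperfusion, with 1 point per rat, blue for sham control and red for IR, and black bars for the mean and SD of 6 rats. In the ratio of miR-27a to miR-27b all 6 IR arrays lie above the sham control arrays at 24 h and 48 h.

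Members of 1 cluster were set against each other after the values had been seen, so these ratios are given without a test. The log2 of miR-27a over miR-23a, which come from the same primary transcript, was 0.77 ± 0.06 after IR and 0.16 ± 0.09 in sham control at 24 h, 0.65 ± 0.20 and -0.10 ± 0.19 at 48 h, and 0.36 ± 0.19 and 0.05 ± 0.08 at 7d (SD, n = 6). No arrays overlapped at 24 h or 48 h, and 5 of 6 IR arrays were above the sham control range at 7d. In the other cluster the log2 of miR-27b over miR-23b was -1.05 ± 0.06 and -1.07 ± 0.04 at 24 h, -1.04 ± 0.16 and -1.16 ± 0.09 at 48 h, and -1.10 ± 0.05 and -1.08 ± 0.05 at 7d, with overlapping groups at each time.

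In the sham control rats none of the 5 members passed against 0 h at 2 h, 24 h, 48 h or 7d (limma, adjusted p of at least 0.10). At an unadjusted p under 0.05 there were 0, 2, 1 and 1 members, and of all tested miRs 0%, 0%, 0.629% and 10.1% passed after adjustment. MiR-23a was higher by 0.28 at 24 h, 0.28 at 48 h and 0.25 at 7d, with 95% intervals above 0 (adjusted p = 0.12, 0.19 and 0.11 by limma). Without replicate 1 of the sham control at 7d, 1 member passed at 7d. The largest shift of miR-27a in sham control was 0.32 at 24 h (95% interval 0.08 to 0.56, adjusted p = 0.13). The difference between IR and sham control was also compared between time points. For miR-27a it grew by 0.27 from 2 h to 24 h (adjusted p = 0.21), by 0.42 from 24 h to 48 h (adjusted p = 0.23) and changed by -0.51 from 48 h to 7d (95% interval -0.85 to -0.18, unadjusted p = 0.0033, adjusted p = 0.075 by limma). None of these passed, nor did any of the other 4 members in the 5 comparisons of time points, with 0, 1, 1, 1 and 0 members at an unadjusted p under 0.05 from 0 h to 2 h, 2 h to 24 h, 24 h to 48 h, 48 h to 7d and 24 h to 7d. Of all tested miRs 0.629%, 23.9%, 0%, 3.14% and 3.14% passed. These counts depend on the setting. Members passed from 2 h to 24 h in 8 of 16 alternative settings, from 24 h to 48 h in 2 and from 48 h to 7d in 7. For miR-27a the change from 48 h to 7d passed in 7 of 15 alternative fits, at -0.51 to -1.90, and the change from 24 h to 48 h in 2, quantile normalization and the authors' deposited values (0.69 and 0.64, adjusted p = 0.025 and 0.021 by limma). The change from 48 h to 7d also passed when replicate 1 or 5 at 48 h after IR, replicate 5 at 7d after IR, replicate 3 of the sham control at 48 h or replicate 1 of the sham control at 7d was left out (-0.55 to -0.61, adjusted p = 0.012 to 0.0499).

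Ordered by group mean, miR-27a was highest at 48 h after IR (7.02), then 24 h after IR (6.86), 7d after IR (6.63), sham control at 24 h (6.42) and 2 h after IR (6.32), and lowest in the 0 h groups (6.11 after IR and 6.10 in sham control). MiR-24 and miR-23a were also highest at 48 h after IR (7.63 and 6.37). MiR-24 was lowest in sham control at 7d (7.32) and miR-23a at 0 h after IR (5.90). MiR-23b and miR-27b had their lowest mean at 24 h after IR (7.51 and 6.46), and their highest in sham control at 2 h (7.79) and at 24 h (6.66). None of the 45 steps between neighbours in these orders passed (limma, Benjamini-Hochberg adjustment, lowest adjusted p = 0.14), so the order of neighbouring groups is not firm. For groups further apart, only the comparisons given above were read. The group means of miR-27a spanned 0.92 on the log2 scale, those of miR-23a 0.48 and those of the other 3 members 0.20 to 0.31, against a median SD within groups of 0.19, 0.16 and 0.09 to 0.12.

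The passenger strands on the array gave no second reading of the clusters. MiR-24-1*, miR-24-2* and miR-27a* were detected on 0 of 60 arrays and miR-23a* on 1, a sham control array at 24 h, and all 4 lay at the floor of 2.63 on the log2 scale throughout. The array design names no miR-23b* or miR-27b*.

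As a description over the 60 arrays, which share their scaling, miR-23a correlated with miR-27a at r = 0.56 and with miR-24 at 0.56, and miR-23b with miR-27b at 0.57, while miR-23b and miR-27a stood at -0.42. After each group's mean was removed the last value was 0.26 and that of miR-27a with miR-27b was 0.56. Of the 55 other miRs detected on all arrays, those most like the mean of the 5 members were miR-21 (Pearson's r = 0.52), miR-20a (0.48), miR-19b (0.41), miR-9* (0.40) and miR-125a-5p (0.38), all over 60 arrays.

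Defining miRs of retinal neurons were strong on all arrays, with miR-124, miR-9, miR-182, miR-183 and miR-96 detected on 60 of 60 (summed signal 14.43 to 14.95 on the log2 scale over all groups). Of these 5, miR-183 was higher and miR-9 lower after IR at 24 h, miR-183 higher and miR-182 lower at 48 h and miR-183 higher at 7d. Of 6 vessel markers 2 could be tested. MiR-126, the endothelial marker, differed by -0.52 at 24 h (adjusted p = 0.0050 by limma) and -0.32 at 48 h (adjusted p = 0.090). At 24 h miR-126 was detected on 1 of 6 IR arrays and on 6 of 6 sham control arrays. MiR-143, of smooth muscle and pericytes, differed by 0.13 at 48 h (adjusted p = 0.29 by limma). MiR-221 was not tested and went the other way, with a mean of 4.51 after IR and 2.90 in sham control at 24 h. Its mean was higher after IR at 48 h too. At each of these times miR-221 was detected on no IR array and on 1 of 6 sham control arrays. MiR-126* and miR-145 were detected on no array. The summed signal of the list at 48 h was 6.84 to 7.08 after IR and 6.51 to 6.92 in sham control.

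The other lists held few miRs that could be tested. Of the leukocyte list, 5 of 6 miRs were on the array. Its summed signal was 5.64 to 7.07 after IR and 5.04 to 5.63 in sham control at 24 h, 5.47 to 7.03 and 5.12 to 5.61 at 48 h, and 5.73 to 6.77 and 5.12 to 5.65 at 7d. The myeloid miR-223 had a mean of 5.39 after IR and 2.97 in sham control at 24 h, 4.93 and 3.23 at 48 h, and 5.46 and 3.03 at 7d, and was detected on 1 or 2 arrays in each group, miR-142-3p and miR-142-5p on none. MiR-150, the 1 tested member, was lower after IR at 48 h and 7d. Its IR means there, 2.79 and 2.72, were close to the floor of 2.63. It was detected on 1 of 6 IR and 4 of 6 sham control arrays at 48 h, and on 0 and 6 at 7d. Only the sham control group at 7d detected miR-150 on all 6 arrays. It entered the test through that group, so its fall at 7d is not independent of the filter. Of the muscle list, miR-206 was tested and was higher after IR at all 5 time points, by 2.04 at 0 h, 2.33 at 2 h and 1.96 at 48 h (adjusted p = 3.1e-04, 8.0e-05 and 1.0e-04 by limma), while miR-133a was detected on no array. MiR-27a differed by less than 0.01 at 0 h and by 0.87 at 48 h, and a link with miR-206 was not tested. The summed muscle signal was 7.76 to 9.32 after IR and 5.97 to 7.86 in sham control at 48 h. The erythrocyte miRs miR-451 and miR-144 stayed at the floor. Of the pigment epithelium list, all 3 miRs were tested. MiR-204 fell at 24 h. MiR-184 was lower after IR at 7d, where it was detected on no IR array and every IR array lay at the floor. It too entered the test only through the sham control group at 7d, so this fall is not independent of the filter. The summed signal of the list at 48 h was 10.52 to 10.80 after IR and 10.54 to 11.22 in sham control. The part of these cells in the values of the members was not tested.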

How the data were processed

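The 60 arrays were Agilent 1-colour rat miR arrays hybridized with Cy3-labeled total RNA (100 ng). The authors deposited scanner files whose intensities were corrected for background and spatial trend by Feature Extraction 9.5.3.1, and not normalized between arrays. A further table deposited by the authors, with log2 values scaled to the 75% quantile in GeneSpring GX10.0, served as an alternative (column medians -0.86 to -0.41, total signals centred per array). The sum over the probes of a miR (total gene signal) was used here. Each array was divided by its 75th percentile among the 57 miRs that all arrays detected, values under 6.20 signal units were set to 6.20, and log2 was taken. The 159 of 350 miRs that 1 or more groups detected on all their 6 arrays entered 1 fit with limma 3.58.1 (R 4.3.3) over all 60 arrays and 10 groups, with Benjamini-Hochberg adjustment per comparison. Control spots were left out, and no sample was dropped. Groups and replicate numbers came from the sample labels. Ratios were tested by exact permutation and adjusted over 20 tests (Python 3.11.15, numpy 2.4.6, pandas 2.3.3). On simulated data with 40 of 159 miRs changed by 0.5 on the log2 scale at 24 h, 24 were recovered and 0 of the 119 others were called, and with changes of 1, 35 were recovered and 3 of the others were called. The simulated arrays held no differences in brightness, slide or scaling, and changes under 0.5 were not simulated. They therefore do not bear on small calls that move with these.

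The members, marker lists and tests were chosen with earlier results of these data known. Named are the 5 members, the passenger strands on the array, and the 5 miRs most like the mean of the members. Other miRs are named from the marker lists. Alternatives tried were probe means of log2 processed signals, normexp (offset 50), the 75th percentile over all miRs, quantile or no normalization, a floor of 1, other sets of miRs or arrays, blocks for replicate, slide and scan, brightness as a covariate, exact permutation tests, limma with trend, the authors' table, single probes, and each array left out. Values of members within scans, the ratios with brightness as a covariate and the ratios within clusters were chosen after seeing the data.

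No 2 arrays were identical (SD of log2 differences of at least 0.157). There were 9 slides, of which 2 held both treatments but none held both at the same time point. IR and sham control arrays of a time point thus always lay on different slides, also within a scan. A difference between slides cannot be fully told apart from that between IR and sham control. The 3 scans were each balanced between IR and sham control at each time. The number of arrays limits the precision.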

Additional observations from a re-analysis of the deposited data

Results flagged for a closer look

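In 90 groups of 6 arrays (5 members and 4 ratios in 10 groups), 9 held an array whose gap to its nearest neighbour exceeded 0.625 of the range (Dixon's 95% critical value), a rule that chance meets in about 1 in 20. MiR-23b was low in replicate 1 of the sham control at 48 h (7.34, the others 7.75 to 7.88), and so was miR-27b there (6.30, the others 6.55 to 6.68). Without that array the fall of miR-23b at 48 h was -0.23 (adjusted p = 5.7e-04 by limma). MiR-27a was high in replicate 4 at 24 h after IR (7.25, the others 6.66 to 6.86) and low in replicate 4 at 7d after IR (6.13, the others 6.60 to 6.83), a dim array on which it was not detected. MiR-27b was low in replicate 1 of the sham control at 2 h (6.44, the others 6.58 to 6.65) and high in replicate 3 at 48 h after IR (6.71, the others 6.45 to 6.53). The log2 ratio of miR-27a to miR-27b was high in replicate 6 at 2 h after IR (0.035, the others -0.37 to -0.22) and in replicate 1 of the sham control at 2 h (-0.33, the others -0.48 to -0.43). The log2 ratio of the miR-23 pair to the miR-27 pair was high in replicate 1 of the sham control at 0 h (0.90, the others 0.43 to 0.51).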

How the results depend on the processing

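The rise of miR-27a at 48 h kept its direction and its call in 14 of the 15 alternative fits across miRs (0.71 to 0.99 in those 14), with each of its probes, and with each array left out (0.78 to 0.96). The exception was no normalization between arrays, at -0.33. The highest value, 0.99, came with normexp, on a scale where the median of all tested miRs was 0.85 at 48 h. Of all tested miRs 69.2% passed as higher there, so that call is not particular to miR-27a. Where the calls of other members depended on a setting, the cause was not tested unless it is named. Without normalization the IR arrays stay dimmer as a whole, and all 5 members passed at 0 h, 24 h and 7d and 4 at 48 h, at an adjusted p of at most 0.05 alone and likewise with a fold change of at least 2. Of all tested miRs 79.2%, 90.6%, 95.6% and 84.3% passed there at 0 h, 24 h, 7d and 48 h by the adjusted p alone. With a fold change of at least 2 the shares were 49.7%, 85.5%, 93.7% and 74.8%. The signs that turned there were those of miR-27a (-1.06 at 0 h, -1.71 at 24 h and -2.23 at 7d), miR-23a (-1.08 at 48 h and -2.54 at 7d) and miR-24 (-1.99 and -1.06 at 24 h and 48 h, and -2.33 at 7d). At 0 h 5 members passed with the 75th percentile over all miRs and in the authors' table, 4 with quantile normalization and 2 with normexp, against 0 as reported, beside 52.8%, 50% (in the table), 40.3% and 66.7% of all tested miRs. The sign of miR-27a at 0 h turned to -0.32 with all miRs and -0.31 in the authors' table. In that table miR-24 turned to -0.19 at 24 h and -0.0039 at 7d, and miR-23a to -0.21 at 7d. With normexp 4 members passed at 48 h and 5 at 7d, 2 of them with a fold change of at least 2, beside 81.1% and 84.9% of all tested miRs (59.7% with that fold change at 7d). The signs that turned were those of miR-23a (0.63 at 0 h and 0.70 at 24 h), miR-23b (0.24, 0.20 and 0.42 at 24 h, 48 h and 7d) and miR-27b (0.59, 0.62 and 0.82), and of the ratio of miR-24 to the other 4 (-0.25 at 0 h, -0.14 at 24 h and -0.21 at 7d). The ratio of miR-23a to miR-23b was 0.45 at 0 h. With brightness as a covariate 0 members passed at 24 h, 1 at 48 h and 0 at 7d, beside 18.2%, 34.6% and 18.2% of all tested miRs. When slide was a block, 2 passed at 24 h and 1 at 7d, each as lower (34% and 35.2% of all). MiR-27a thus did not pass at 24 h or 7d there, nor did miR-24 at 7d. Among the 57 miRs detected on all 60 arrays, which hold 2 of the members, 1 passed at each of 24 h, 48 h and 7d. Of those 57 miRs 47.4%, 54.4% and 57.9% passed. At 48 h 1 passed with only the arrays compared and by the exact permutation test (38.4% of all tested miRs in each), and 1 to 2 with an array left out. The shorter probe of miR-27a gave -0.10 at 7d. The methods name no test for miRs.

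With the replicate number as a block, no call of a member against sham control changed, and the change of miR-27a from 48 h to 7d (-0.51) passed (adjusted p = 0.047 by limma). Same-numbered IR and sham control arrays of a time point lay in the same scan. Their deviations correlated at -0.45 to 0.60 (above 0.1 in 15 of 30 pairs), which does not settle whether the numbers pair the arrays. With the replicate block the ratio of miR-27a to miR-27b at 48 h (0.91) had p = 0.031 by the exact sign-flip permutation test, the smallest that 6 pairs allow, and an adjusted p of 0.078, so no ratio passed after adjustment.

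Depth in reads does not apply to arrays. On dim IR arrays the members lay closer to background, and 4 of the 300 values of members were not detected, all after IR. Beside differences of members of -0.22 to 0.87, the scaling of the authors' table moved the median of all tested miRs by -0.37 at 24 h, -0.14 at 48 h and -0.30 at 7d. Leaving out 1 array ended or made a call for miR-23b at 48 h (9 of 12 arrays, -0.13 to -0.23 over all 12) and miR-27b at 7d (8 of 12, -0.11 to -0.17). It also made a call for miR-23b at 7d (-0.16 without IR replicate 6, adjusted p = 0.040) and for miR-24 at 24 h (0.22 without sham control replicate 6, adjusted p = 0.023), both by limma. The ratio of miR-23a to miR-23b passed at 48 h without IR replicate 5 or sham control replicate 1 (0.33 and 0.32) and at 7d without IR replicate 4 (0.19), by the exact permutation test.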
